A study of Mus musculus with 2 samples.

Results

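The cholesterol synthesis enzymes, the SREBP2 control genes and the genes of intracellular sterol transport were followed in mouse primary hepatocytes made to express the zinc finger transcription factor KLF14. The set was drawn up by gene symbol and holds 32 names for 31 genes, since Sc4mol and Msmo1 are the older and the newer name of 1 gene, listed here as Sc4mol. All 31 are among the 35129 gene symbols measured, and 29 averaged 1 FPKM or more across the pair of libraries, the minimum for the comparison, which 12419 genes reached in all. FPKM values are scaled to gene length and library size, so levels can be compared roughly between genes. The handling of reads that match several places is not given, so the level of some genes may be too low. Hmgcs1 was listed at 0 in both libraries and Soat1 lay under the minimum.

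The cells of both conditions were hepatocytes of C57BL/6 mice infected in culture with an adenovirus. In the Ad-KLF14 condition the virus carried KLF14. In the Ad-GFP condition it was a control virus, labelled GFP and called an empty vector in the series' design text. Viral dose, time after infection and the age and sex of the mice are not given in the sources used here. Each condition holds 1 library, so the conditions could not be tested against each other and each difference describes these 2 libraries. The design text speaks of triplicates, and no label says whether a library pools several cultures.

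Hepatocytes make cholesterol from acetyl-CoA. The mevalonate pathway first yields the isoprene units, which are joined to farnesyl diphosphate and then to squalene, and squalene is closed to lanosterol, from which a series of demethylation, reduction and isomerisation steps leads to cholesterol. SREBP2, the product of Srebf2, is the membrane-bound transcription factor that switches these enzymes on. When membrane sterol is low, its escort Scap carries it to the Golgi, where the proteases of Mbtps1 and Mbtps2 release it, and when sterol is high, the Insig proteins hold Scap and SREBP2 in the endoplasmic reticulum.

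The level of Klf14 itself followed the labels, with 13164 FPKM in Ad-KLF14 and 0.298 FPKM in Ad-GFP cells. Reads from the virus and from the endogenous gene could not be told apart. Total reads of 11151711 for Ad-KLF14 and 11311344 for Ad-GFP were recovered from the FPKM values, and the 95% Clopper-Pearson intervals given below were computed from a gene's reads in the pair of libraries. They cover counting error only, not differences between cultures, and amplified reads are not independent molecules. All 14 measured hepatocyte markers were above the minimum and under 2-fold apart. The bile duct markers summed to 247 with Ad-KLF14 against 806 FPKM with Ad-GFP (always in this order from here on), with 4 of 8 above the minimum and the defining Krt7 and Cftr at 0. The macrophage markers summed to 229 against 156 FPKM, with 10 of 14 above the minimum. Cd68 (160 against 71.1 FPKM) was the 1 marker at least 2-fold higher. Mpeg1 (17.1 against 40.1 FPKM) was the 1 at least 2-fold lower. Without Cd68 the other 13 summed to 69.2 against 85.2 FPKM, and this lower sum leans on Mpeg1, so neither sum speaks for the markers as a group. Endothelial, stellate and blood cell markers summed to between 4.26 and 14.1 FPKM in either library. The part of these other cells in the results below was not tested.

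Most synthesis enzymes were higher with Ad-KLF14, while 5 of the 6 genes that control SREBP2 were lower. Ratios on a log2 scale were computed on FPKM + 1, which understates differences of low genes, and a gene counted as different once it reached 2-fold. Of the 29 members, 7 (24.1%) were at least 2-fold higher, against 6.37% of all 12419 genes. At least 2-fold lower was 1 member (3.45%), against 8.99% of all genes. In all, 19 members (65.5%) lay above 0, against 48.3% of all genes, and 10 lay below 0, against 51.7%. The median log2 ratio was 0.31 for the members and −0.03 for all genes. In bulk RNA, fewer cells that express a gene and less RNA per cell cannot be told apart.

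**Figure D1:**
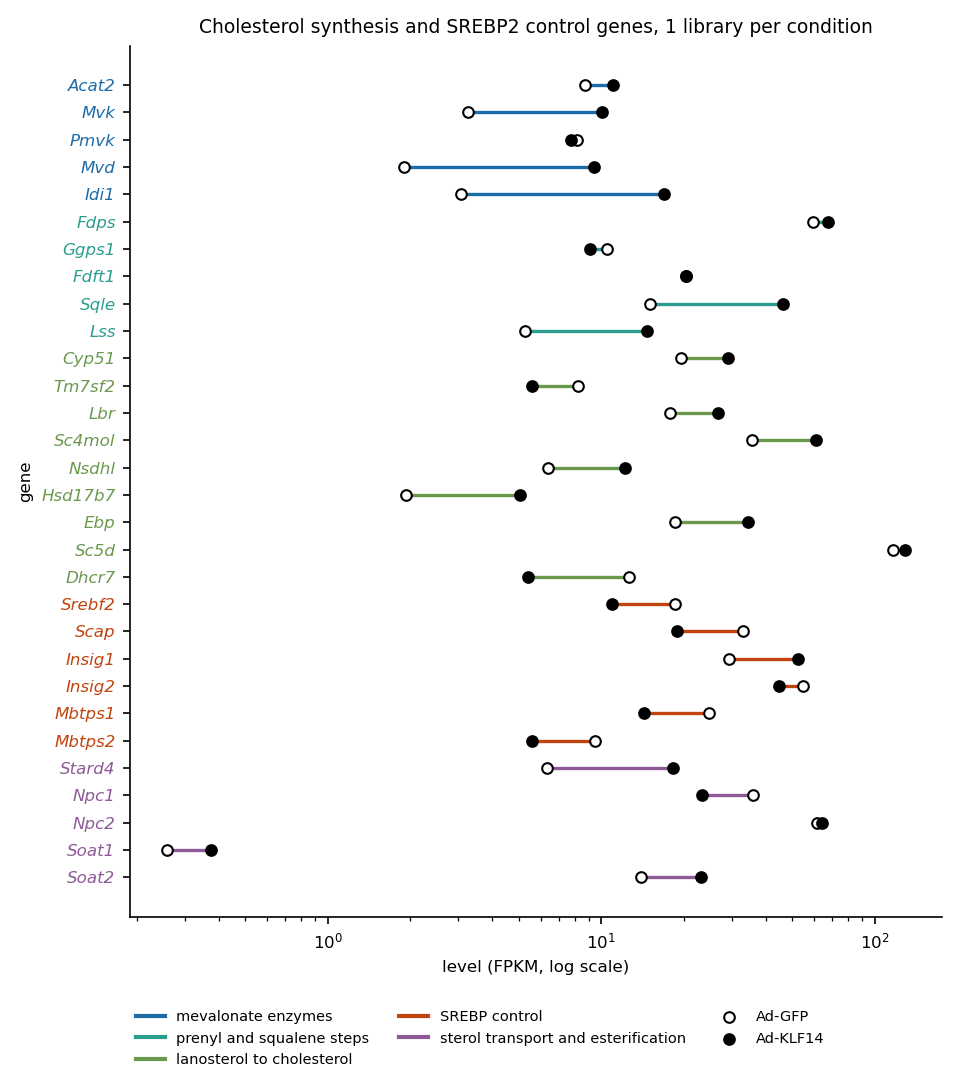
Level of each measured gene in the Ad-GFP library (open circles) and the Ad-KLF14 library (filled circles), in FPKM on a log scale; line and label colours give the role. Filled circles lie to the right for most enzymes, by the most for Idi1 (16.9 against 3.08 FPKM), and to the left for Srebf2, Scap, Mbtps1 and Mbtps2.

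The enzymes that turn mevalonate into isoprene units held the largest differences of the whole set. Idi1, which isomerises isopentenyl diphosphate to the reactive dimethylallyl form, was at 16.9 against 3.08 FPKM, from 540 and 100 reads. This is 5.48-fold higher (interval 4.42 to 6.85), and its log2 ratio of 2.13 took rank 43 from the highest among the 12419 genes. Mvd, which decarboxylates mevalonate diphosphate, was at 9.38 against 1.90 FPKM, from 195 and 40 reads, or 4.94-fold higher (interval 3.50 to 7.13). Mvk, the kinase that takes the first step after mevalonate, was at 10.05 against 3.25 FPKM, or 3.09-fold higher (interval 2.305 to 4.201).

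The step between Mvk and Mvd did not share this difference. Pmvk, the phosphomevalonate kinase, was at 7.76 against 8.17 FPKM, giving a ratio of 0.9498 (interval 0.719 to 1.25), and its counting interval holds 1. The upper bound of Pmvk lies below the lower bounds of Mvk and Mvd. At the entry to the pathway, the cytosolic thiolase gene Acat2 was at 11.01 against 8.69 FPKM, giving a ratio of 1.27 (interval 0.911 to 1.77). Its 85 and 68 reads are lower limits, so the interval may be too wide. Mice carry a close copy of it, Acat3 (45.1 against 49.2 FPKM), and how reads shared by both were assigned is not stated, so the value of Acat2 is uncertain. Hmgcs1, which makes HMG-CoA, was listed at 0 in both libraries. Such a 0 may be a failed estimate, since Gapdh, which most cells express strongly, was listed at only 3.06 and 3.09 FPKM, and no statement is made on Hmgcs1. The 5 measured mevalonate genes, without Hmgcs1, summed to 55.1 against 25.1 FPKM.

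In the steps from isoprene units to lanosterol, the enzymes at the end were higher and those at the start were close together. Fdps, which builds farnesyl diphosphate, was at 67.2 against 59.4 FPKM, giving a ratio of 1.13 (interval 1.03 to 1.24). Ggps1 makes geranylgeranyl diphosphate for protein prenylation, a branch away from sterols, and was at 9.11 against 10.5 FPKM, giving a ratio of 0.867 (interval 0.727 to 1.03). Fdft1, squalene synthase, was at 20.4 FPKM in both libraries (ratio 1.00, interval 0.896 to 1.12). Squalene epoxidase, Sqle, which adds the first oxygen, was at 46.2 against 15.1 FPKM, from 1415 and 470 reads, or 3.05-fold higher (interval 2.75 to 3.40). Lanosterol synthase, Lss, which closes the rings, was at 14.7 against 5.24 FPKM, or 2.81-fold higher (interval 2.37 to 3.34). The library kit does not mark strand, and in the mouse annotation (GENCODE M21, build GRCm38) Fdft1 shares 774 exon bases with the opposite-strand gene Ctsb (129 against 204 FPKM), so reads of Ctsb may be in the value of Fdft1. In all, 12 members share at least 100 exon bases with another annotated gene.

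After lanosterol, 7 of 9 genes were higher in the Ad-KLF14 library beyond counting error, mostly by under 2-fold, and 2 were lower. Over all kept genes with reads in both libraries, the interval lay above 1 for 33.3% and below 1 for 37.2%. Cyp51, which removes the 14-alpha methyl group, was at 29.0 against 19.6 FPKM (ratio 1.48, interval 1.32 to 1.67). The C4 demethylation enzymes had ratios in the same range. Sc4mol was at 61.1 against 35.7 FPKM (ratio 1.71, interval 1.56 to 1.87), and Nsdhl was at 12.2 against 6.38 FPKM (ratio 1.91, interval 1.57 to 2.33). Hsd17b7, the ketoreductase of the same complex, was at 5.06 against 1.93 FPKM, or 2.62-fold higher (interval 1.87 to 3.70), and was the only gene of this stretch past 2-fold upward. The sterol isomerase gene Ebp was at 34.5 against 18.5 FPKM (ratio 1.86, interval 1.63 to 2.12). Sc5d, the desaturase, had the highest level of all members, at 129 against 116 FPKM (ratio 1.11, interval 1.06 to 1.17).

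The 2 enzymes that can reduce the C14 double bond went opposite ways. Lbr, also known as the lamin B receptor of the inner nuclear membrane, was at 26.8 against 17.8 FPKM (ratio 1.502, interval 1.27 to 1.78). Tm7sf2 was at 5.58 against 8.19 FPKM (ratio 0.681, interval 0.517 to 0.894). Dhcr7, which makes cholesterol from 7-dehydrocholesterol, was at 5.38 against 12.7 FPKM, from 169 and 404 reads. It was 2.36-fold lower (interval 1.96 to 2.84) and the only member at least 2-fold lower. Over the whole synthesis route, 15 of 19 measured enzymes were above 0. Of these enzymes 6 passed 2-fold upward and Dhcr7 passed it downward. Fdft1 counts among the 15 with a log2 ratio of only 0.0007. The median of the enzymes was 0.56, and their levels summed to 521 against 373 FPKM.

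**Figure D2:**
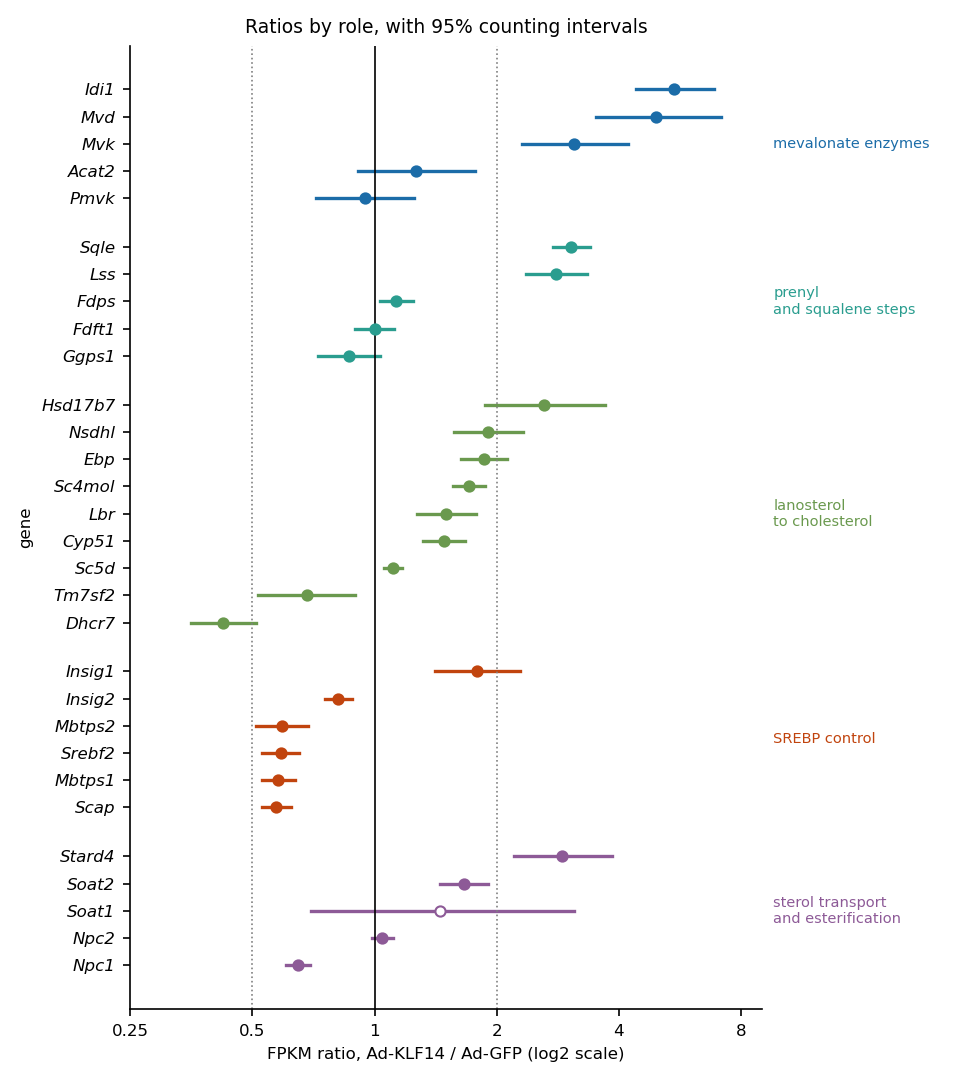
Ratio of the FPKM values, Ad-KLF14 over Ad-GFP, on a log2 axis for each gene by role; bars are 95% counting intervals, dotted lines mark 2-fold, and the open circle is Soat1, under the level minimum. The enzymes spread from 0.424 (Dhcr7) to 5.48 (Idi1), while Srebf2, Scap, Mbtps1 and Mbtps2 sit together between 0.572 and 0.592.

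Of the control genes, Srebf2, Scap, Mbtps1 and Mbtps2 lay close together on the lower side, and both Insig genes lay above them. Srebf2 was at 10.9 against 18.6 FPKM, from 557 and 963 reads, a ratio of 0.587 (interval 0.528 to 0.652). Scap, the escort, was at 18.9 against 33.0 FPKM, giving a ratio of 0.572 (interval 0.527 to 0.622). Mbtps1, which makes the first cut in SREBP2, was at 14.3 against 24.7 FPKM, giving a ratio of 0.580 (interval 0.528 to 0.637). Mbtps2, which makes the second, was at 5.61 against 9.47 FPKM, giving a ratio of 0.592 (interval 0.512 to 0.684). The intervals of these 4 ratios overlap one another and lie below 1, and none of the genes reached 2-fold. Within Mbtps2 the annotation places Yy2 on the same strand, with 2867 shared exon bases and 3.63 against 3.02 FPKM, so the reads of both are not cleanly separable.

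The Insig genes differed from each other. Insig1, itself a known target of SREBP2, was at 52.6 against 29.4 FPKM, giving a ratio of 1.79 (interval 1.41 to 2.28) from at least 194 and 110 reads. Insig2, the paralog whose transcription depends less on SREBP2, was at 44.6 against 54.7 FPKM, giving a ratio of 0.815 (interval 0.755 to 0.880). With Ad-GFP the level of Insig2 was above that of Insig1, and with Ad-KLF14 the order was the other way round. The 6 control genes had a median log2 ratio of −0.69, with 1 above 0 and 5 below.

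Among the genes of sterol movement and storage, Stard4 stood out. It encodes a soluble carrier that shuttles cholesterol between membranes, is known to respond to SREBP2, and was at 18.3 against 6.31 FPKM, or 2.90-fold higher (interval 2.20 to 3.86). Of the gene pair that exports cholesterol from lysosomes, Npc1 was lower, while the counting interval of Npc2 holds 1. Npc1, the membrane protein, was at 23.3 against 35.9 FPKM (ratio 0.648, interval 0.605 to 0.694), and Npc2, its soluble partner, was at 64.2 against 61.4 FPKM (ratio 1.046, interval 0.987 to 1.11). Soat2, the cholesterol ester forming enzyme of hepatocytes, was at 23.2 against 14.0 FPKM (ratio 1.66, interval 1.45 to 1.90). Soat1, the form of macrophages and many other cells, was at 0.375 against 0.259 FPKM from 20 and 14 reads, too few to show a difference (interval 0.696 to 3.10).

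Across all roles, the interval lay above 1 for 16 of the 29 members, against 33.3% of all kept genes with reads in both libraries, and below 1 for 8, against 37.2%. The interval held 1 for Acat2, Pmvk, Ggps1, Fdft1 and Npc2. The genes with the highest mean levels, Sc5d, Fdps and Npc2, had ratios between 1.046 and 1.13. The 7 members past 2-fold upward were Idi1, Mvd, Sqle, Stard4, Mvk, Lss and Hsd17b7, at ranks 43 to 698 from the highest. Dhcr7 was at rank 897 from the lowest.

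**Figure D3:**
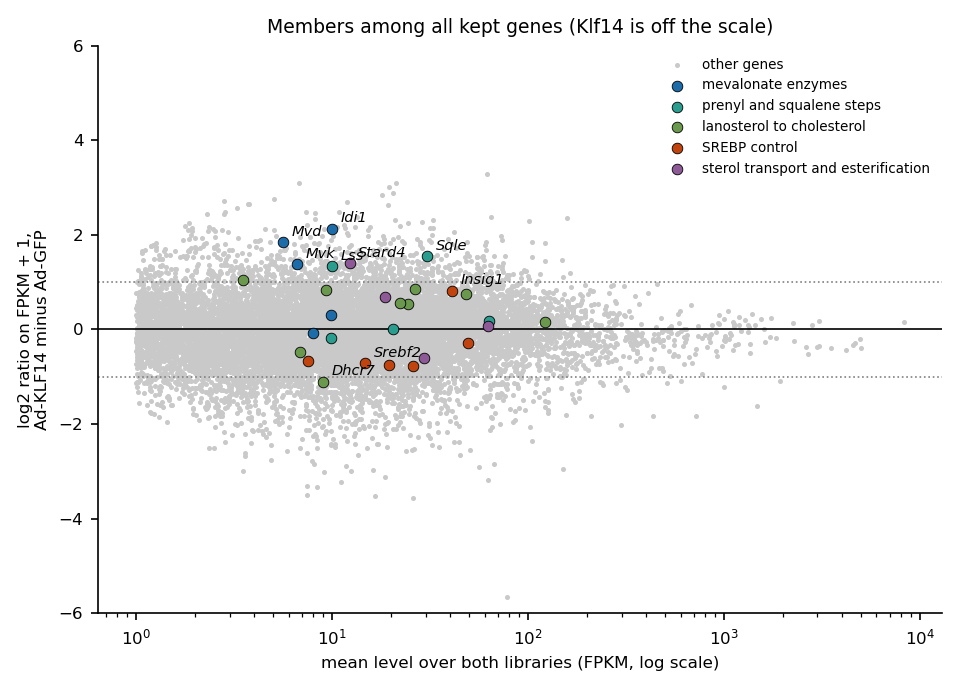
Log2 ratio on FPKM + 1 against the mean level for the 12419 kept genes (grey; Klf14 itself lies outside the axis), with the 29 members coloured by role; dotted lines mark 2-fold. The 7 members above the upper line include Idi1 at 2.13 and Mvd at 1.84, and Dhcr7 at −1.10 is the 1 below the lower line.

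As the members differed unevenly, the DNA just upstream of their transcription starts was examined for letters that SREBP2, its usual partner NF-Y and the KLF and SP factors are known to bind. RefSeq promoters (build GRCm38.p6) were found for 25 of the 31 genes, and the 250 bases before the start were searched on both strands. None was found for Fdps, Fdft1, Sqle, Stard4, Npc1 and Soat2. Where RefSeq lists several starts, the one nearest the gene's annotated 5′ end was taken. Those of the 4 members with the largest log2 ratio and the 2 with the lowest, among members with a listed promoter, are printed to show how they differ. They are Idi1 (chr13:8885356-8885605, plus strand), Mvd (chr8:122443423-122443672, minus strand), Mvk (chr5:114444019-114444268, plus strand), Lss (chr10:76531355-76531604, plus strand), Dhcr7 (chr7:143822917-143823166, plus strand) and Scap (chr9:110333038-110333287, plus strand). The stretches run 5′ to 3′ on the strand of the gene and end at the base before the start. Bases shortly after the start were found in an annotated transcript of the gene for each printed member. For Hmgcs1, Lbr, Nsdhl, Sc5d and Mbtps1, which are not printed, they were not found. Capitals mark the CCAAT box or its reverse complement.
Idi1: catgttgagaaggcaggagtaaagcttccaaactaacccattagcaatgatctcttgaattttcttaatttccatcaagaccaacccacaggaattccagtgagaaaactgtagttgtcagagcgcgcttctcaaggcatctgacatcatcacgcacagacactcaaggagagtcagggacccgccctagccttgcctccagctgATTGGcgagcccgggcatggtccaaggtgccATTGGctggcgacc
Mvd: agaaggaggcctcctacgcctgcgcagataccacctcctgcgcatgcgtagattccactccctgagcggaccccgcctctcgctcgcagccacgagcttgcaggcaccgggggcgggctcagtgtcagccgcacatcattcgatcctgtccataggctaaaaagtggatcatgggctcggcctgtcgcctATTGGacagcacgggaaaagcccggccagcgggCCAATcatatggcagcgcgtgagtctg
Mvk: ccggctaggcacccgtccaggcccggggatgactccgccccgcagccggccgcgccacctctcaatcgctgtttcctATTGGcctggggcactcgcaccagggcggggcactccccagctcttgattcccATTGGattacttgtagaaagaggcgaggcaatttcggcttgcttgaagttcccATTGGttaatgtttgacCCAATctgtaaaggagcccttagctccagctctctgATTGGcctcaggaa
Lss: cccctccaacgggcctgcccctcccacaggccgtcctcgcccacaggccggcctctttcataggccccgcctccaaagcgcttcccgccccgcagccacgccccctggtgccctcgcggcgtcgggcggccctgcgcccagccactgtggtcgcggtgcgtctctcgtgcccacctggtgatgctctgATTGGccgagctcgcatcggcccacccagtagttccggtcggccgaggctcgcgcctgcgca
Dhcr7: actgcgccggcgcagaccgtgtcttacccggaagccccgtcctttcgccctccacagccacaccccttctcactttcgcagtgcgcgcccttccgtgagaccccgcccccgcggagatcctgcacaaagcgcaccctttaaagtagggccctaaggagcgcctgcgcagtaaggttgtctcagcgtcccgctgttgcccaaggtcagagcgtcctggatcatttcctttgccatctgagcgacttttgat
Scap: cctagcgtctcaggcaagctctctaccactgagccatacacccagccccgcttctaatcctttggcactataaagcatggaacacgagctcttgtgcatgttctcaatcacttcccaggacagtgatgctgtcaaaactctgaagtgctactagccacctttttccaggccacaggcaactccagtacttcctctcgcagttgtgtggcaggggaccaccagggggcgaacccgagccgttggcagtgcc

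The upstream stretches of Idi1 and Mvd hold 2 CCAAT boxes each, that of Mvk 5 and that of Lss 1, whereas those of Dhcr7 and Scap hold none. RefSeq lists 3 starts for Dhcr7 and 2 for Scap, and 1 start each for the other printed members. A CCAAT box lies upstream of 1 of the 3 starts of Dhcr7, not the one printed, and of neither start of Scap. CCAAT, the letters that NF-Y binds, occurred upstream of 20 of 25 members (80.0%), against 34.5% of 27025 genes with a promoter and 36.9% of the 8031 of these that were among the kept genes. It was upstream of 15 of 17 enzymes. These counts take 1 start per gene. Pmvk, with 2 starts, and Insig2, with 3, are counted as holding the box, which lies upstream of 1 start in each. By direction, 13 of the 14 members with a log2 ratio above 0 held it, all but Acat2, and 5 of the 9 with a ratio below 0. Direction and role run together here, as those above 0 are enzymes except Insig1 and Npc2. Those below 0 without the box are the control genes Scap, Mbtps1 and Mbtps2 and the enzyme Dhcr7. The enzymes Pmvk, Ggps1 and Tm7sf2 and the control genes Srebf2 and Insig2, also below 0, held it. A link of the box with direction was not tested.

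The GC box GGGCGG, bound by SP and several KLF proteins, was upstream of 19 of 25 members (76.0%), against 33.0% of all genes and 60.5% of the kept genes. All 14 members with a ratio above 0 held it, as did Tm7sf2, Srebf2, Mbtps1 and Dhcr7 of the 9 below. The stretches above 0 had a median GC content of 62.8% and those below 0 of 55.2%, and a GC-rich stretch holds such letters more often. The CACCC box CCACCC was upstream of 6 of 25 members and of 27.6% of all genes. A sterol regulatory element spelled TCACNCCAC, where N is any base, was found upstream of Hmgcs1 alone, as TCACCCCAC, and in 1.03% of all genes. This spelling is 1 of several that SREBP2 binds, so the others may hold a variant of it. No match of 1 motif overlapped a match of another in these members. These matches describe the letters of the reference, and binding was not measured.

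**Figure D4:**
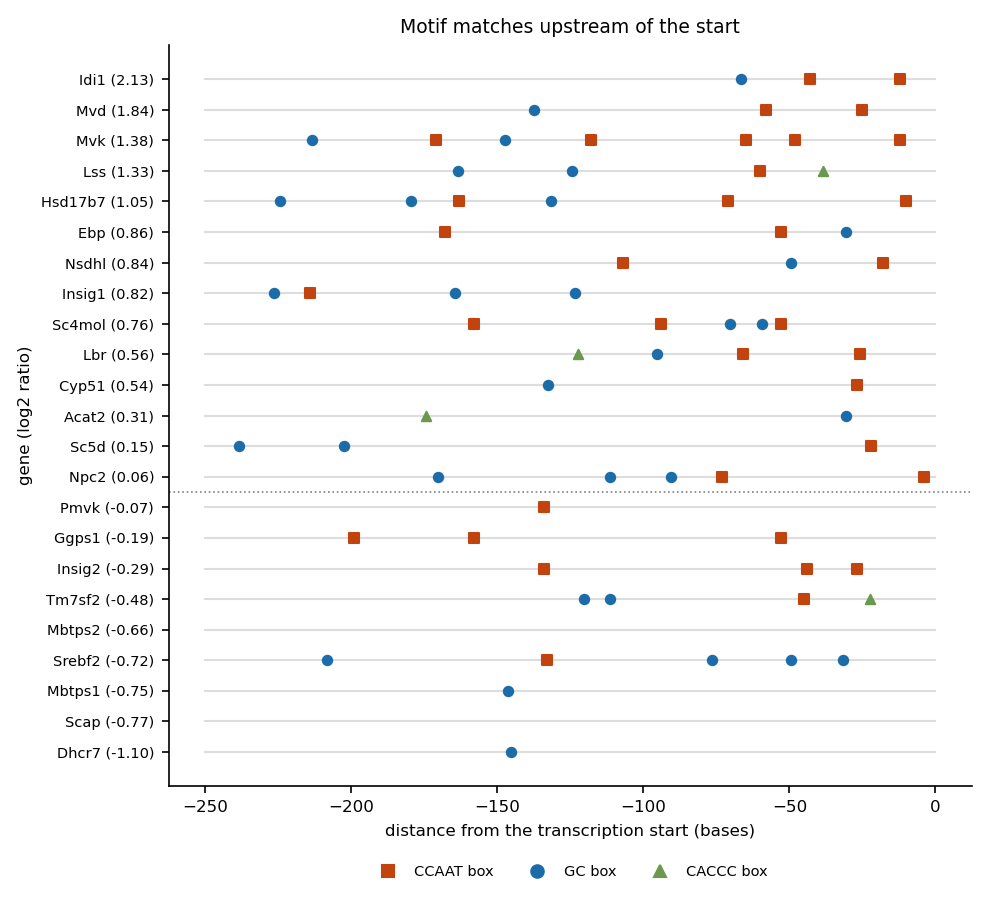
Positions of CCAAT boxes (squares), GC boxes (circles) and CACCC boxes (triangles) in the 250 bases before the start of the 23 kept members with a promoter, by log2 ratio (in brackets, highest at the top); the dotted line separates ratios above and below 0. Squares are in 13 of the 14 upper and 5 of the 9 lower rows, and circles in all 14 upper and 4 of the lower rows.

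Genes around the pathway were counted in 7 lists, to be read against the shares over all kept genes, of which 48.3% had a log2 ratio above 0, 6.37% passed 2-fold upward and 8.99% passed it downward. Of 13 further synthesis enzymes and SREBP2 targets, 9 (69.2%) were above 0, with a median log2 ratio of 0.43. On FPKM + 1, 2 were at least 2-fold higher and none at least 2-fold lower. Aldoc, a low gene at 0.685 against 1.92 FPKM from 13 and 37 reads, had a log2 ratio of −0.79 on that scale. Its plain FPKM ratio was 2.81-fold lower (interval 1.46 to 5.75). Tmem97, a sterol-responsive partner of Npc1, was at 125 against 58.4 FPKM (2.14-fold, interval 1.98 to 2.33), and Pcyt2, of phosphatidylethanolamine synthesis, was at 40.4 against 18.7 FPKM (2.15-fold, interval 1.91 to 2.44). Of 10 measured fatty acid genes governed mainly by SREBP1, 4 were above 0, with a median of −0.08, and fatty acid synthase, Fasn, at 35.7 against 15.4 FPKM (2.31-fold, interval 2.19 to 2.45), was the 1 past 2-fold.

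Of 11 genes that degrade the sterol-regulated reductase and Insig, 7 were below 0, none was 2-fold apart, and the median was −0.33. Of 10 COPII coat genes, which form the vesicles that carry Scap and SREBP2, 5 were above and 5 below 0. Among the latter, Sar1a, the GTPase that starts the coat, was 2.14-fold lower (interval 1.86 to 2.48), at 18.9 against 40.5 FPKM, and Sec23a 2.16-fold lower (interval 1.78 to 2.63), at 6.68 against 14.4 FPKM. Their paralogs, named after their values were seen, were at higher levels and on the other side of 0. Sar1b was at 84.2 against 56.4 FPKM (ratio 1.49, interval 1.36 to 1.63) and Sec23b at 67.4 against 41.8 FPKM (ratio 1.61, interval 1.502 to 1.73).

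The branches that use isoprene units for other products held the lowest values. Fnta, the alpha subunit shared by farnesyl and geranylgeranyl transferase, was at 8.15 against 37.8 FPKM, or 4.64-fold lower (interval 3.47 to 6.28). Coq2, which attaches the ubiquinone side chain, was at 11.4 against 36.6 FPKM, or 3.22-fold lower (interval 2.76 to 3.76). Rce1, the protease that trims prenylated proteins, was 2.16-fold lower (14.4 against 31.1 FPKM, interval 1.85 to 2.54). The list as a whole was not lower, with 9 of 15 above 0 and a median of 0.09. These counts include Cyb5r3 (ratio 1.01) and Por (ratio 0.915), electron-transfer genes that are not part of such a branch.

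Sterol transfer proteins had 3 of 11 above 0 and a median of −0.09. Osbpl1a was 2.48-fold lower (interval 2.10 to 2.94, from 5.66 against 14.0 FPKM). Vapb, an anchor for such proteins in the endoplasmic reticulum, was 2.28-fold lower (6.34 against 14.4 FPKM, interval 2.05 to 2.53). Osbpl2 was at 27.3 against 13.4 FPKM, a plain ratio of 2.03 (interval 1.80 to 2.29), with a log2 ratio of 0.97 on FPKM + 1. In the list of liver X receptors, oxysterol enzymes and efflux genes, 8 of 14 were above the minimum, 5 of them above 0. Cyp27a1, which hydroxylates cholesterol in mitochondria, was 2.08-fold higher (48.2 against 23.2 FPKM, interval 1.86 to 2.32), and Nr0b2, which encodes the repressor SHP, was 2.61-fold lower (1.84 against 4.82 FPKM, interval 1.59 to 4.43). Over all 7 lists, 39 of 78 measured genes were above 0, and 2-fold was passed upward by 4 (5.13%) and downward by 8 (10.3%), shares near those over all kept genes.

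**Figure D5:**
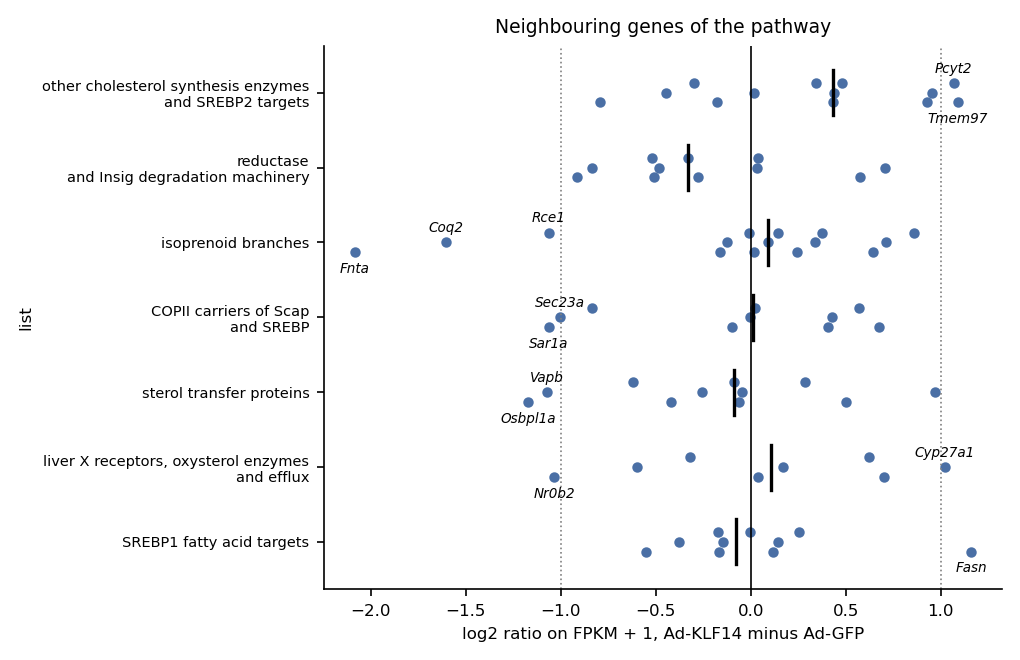
Log2 ratio on FPKM + 1 of the genes in 7 lists around the pathway; each point is a gene, black bars are list medians and dotted lines mark 2-fold, with genes past it named. Medians run from −0.33 (degradation machinery) to 0.43 (other synthesis enzymes and SREBP2 targets), and Fnta lies farthest out at −2.08.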

How the data were processed

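Per the labels' protocols, total RNA of mouse primary hepatocytes was extracted with Trizol and made into Illumina TruSeq libraries. The build mm8 and Bowtie 0.12.2 are named in the submitters' processing notes. Gene models, the counting rule and the handling of reads that match several places are not given in the sources used here. The authors deposited 1 table of FPKM values per library.

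Log2 ratios were taken on FPKM + 1 for genes that averaged 1 FPKM or more. Named ratios are of the FPKM values. Reads were recovered from the steps between the libraries. The ratio of both values was a ratio of whole numbers times 1 constant in 16943 of 16944 genes above 0 in both (relative tolerance 1e-13). The totals taken were the largest that left most implied gene lengths whole (85.5% of 7387 genes, against at most 48.3% for any larger total tried). The implied length was 0.972 of the longest reference transcript in the median gene. Reads of a gene are the fewest that give a whole length, hence lower limits. Those of Cyp51 and Npc1 were divided by 2, as the implied length was over 1.05 times the longest reference transcript. Recovery and intervals were tested on simulated data. Python 3.11.15, numpy 2.4.6, pandas 2.3.3, scipy 1.17.1 and matplotlib 3.10.9 were used.

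The members and lists were chosen with earlier results of these data known. All members are named, Klf14 is named as the check of the labels, and from each list around the pathway up to 4 genes at least 2-fold apart. Gapdh, Acat3, Ctsb and Yy2 were named because a member's value touches on them. Aldoc, Osbpl2, Sar1b, Sec23b and the markers Mpeg1, Spp1 and Cldn4 were named after their values were seen.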

Additional observations from a re-analysis of the deposited data

How the results depend on the processing

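With a pseudocount of 5 FPKM in place of 1, 4 members were at least 2-fold higher (2.38% of all genes) and 0 were at least 2-fold lower (3.76% of all genes). Mvk, Lss, Hsd17b7 and Dhcr7 were then under 2-fold, as a larger pseudocount shrinks ratios of low genes. A pseudocount of 0.1 FPKM, scaling by a trimmed mean of log ratios, equal upper quartiles and removal of Klf14 reads from the total each left 7 higher, 1 lower and 19 above 0. Without the filter on low values the counts were 7, 1 and 20 of 30 members, and with a mean of at least 5 FPKM they were 6, 1 and 18 of 28. The median log2 ratio of the members ranged from 0.23 to 0.35 over the 7 alternatives, and no kept member changed sign in any of them. Of 203 log2 ratios of single members under these settings, 8 differed from the reported value by more than the reach of the counting interval, all with the pseudocount of 5 FPKM. No paired analysis was possible because each condition holds 1 library. For the same reason no replicate could be left out, and differences between cultures remain unmeasured. Soat1, with 20 and 14 reads, had the fewest reads of the members with a value.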
